A study of Homo sapiens with 2 samples.

Results

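The miR-23/27/24 microRNAs come from 2 paralogous clusters, the miR-23a, miR-27a and miR-24-2 hairpins on chromosome 19 and the miR-23b, miR-27b and miR-24-1 hairpins on chromosome 9. The 10 arms described here were taken by name from a table of 2656 mature microRNAs, and all 10 were found. They were read from small RNA libraries of MDA-MB-231 cells, a long-established human line of triple-negative breast cancer. The cells of 1 library had been transduced with an shRNA against ELOVL5, an elongase of polyunsaturated fatty acids (shELOVL5), and those of the other with the control shRNA shLuc. Both groups are the same line and both carry an shRNA, and neither a clone, a time after transduction nor a second shRNA is named in the labels. The level of ELOVL5 itself was not measured in these files, so the knockdown could not be checked here.

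A microRNA hairpin is cut to a short duplex, of which 1 strand is loaded into an Argonaute protein as the guide. The other strand, the passenger, is mostly degraded. Bases 2 to 8 of the loaded strand, the seed, pair with target messenger RNAs. The 3p arms are the usual guides of these clusters. miR-27 is known as a repressor of adipogenic and lipid genes such as PPARG, miR-23 as a repressor of glutaminase, and miR-24 as a repressor of cell cycle genes such as E2F2.

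The mature sequences are shown because the guides of the 2 chromosomes share seeds and differ only elsewhere, so that reads of 1 guide can be told from the other at few positions. They come from RefSeq (GRCh38.p14), 5′ to 3′, with the seed in capitals. All 10 arms and the further arm hsa-miR-23b-5p were matched by name. The 3p arms of miR-23 share the seed UCACAUU, those of miR-27 share UCACAGU, and hsa-miR-24-3p has GGCUCAG and is identical from both clusters.
hsa-miR-23a-3p: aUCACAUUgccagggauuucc
hsa-miR-23b-3p: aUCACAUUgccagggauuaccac
hsa-miR-27a-3p: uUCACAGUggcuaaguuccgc
hsa-miR-27b-3p: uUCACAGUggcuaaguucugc
hsa-miR-24-3p: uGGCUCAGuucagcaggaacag
hsa-miR-27a-5p: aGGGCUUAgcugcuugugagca
hsa-miR-27b-5p: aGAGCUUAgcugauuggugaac
hsa-miR-24-2-5p: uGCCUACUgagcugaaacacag
hsa-miR-24-1-5p: uGCCUACUgagcugauaucagu
hsa-miR-23a-5p: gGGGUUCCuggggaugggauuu
hsa-miR-23b-5p: uGGGUUCCuggcaugcugauuu
Counted from base 1 at the 5′ end of the chromosome 19 copy, without gaps, the miR-27 guides differ by 1 substitution (C19U). The miR-23 guides differ by 1 over their first 21 bases (U19A), and hsa-miR-23b-3p is 23 bases long against 21. The passenger arms differ more, at 8 of 22 positions for miR-27-5p, 6 for miR-24-5p and 7 for miR-23-5p. Of the 5p pairs, miR-24-5p and miR-23-5p share a seed and miR-27-5p does not, with GGGCUUA on chromosome 19 and GAGCUUA on chromosome 9.

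The chromosome 19 hairpins span 373 bases at chr19:13836287-13836659 on the minus strand. Each overlaps an exon of 1 transcript of the long non-coding gene AC020916.1 in GENCODE release 29. The chromosome 9 hairpins span 881 bases at chr9:95085208-95086088 on the plus strand, within C9orf3, an aminopeptidase gene also called AOPEP. MIR23B and MIR27B lie in introns of every annotated C9orf3 transcript that spans them, and MIR24-1 overlaps an exon of 1 transcript. The 2 miR-27 hairpins are shown whole because their arms behaved differently in the libraries, with the mature arms in capitals and the 5p arm first.
MIR27A, chr19:13836440-13836517, minus strand: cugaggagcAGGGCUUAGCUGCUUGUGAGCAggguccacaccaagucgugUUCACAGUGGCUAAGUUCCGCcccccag
MIR27B, chr9:95085445-95085541, plus strand: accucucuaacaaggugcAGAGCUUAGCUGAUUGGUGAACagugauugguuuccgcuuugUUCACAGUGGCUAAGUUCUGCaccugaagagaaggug

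The libraries held 6811811 counts in shELOVL5 and 7109272 in shLuc after the highest precursor row was kept for each microRNA. Levels are given as counts per 1000000 counts (CPM) scaled with TMM factors, and each difference as the ratio of shELOVL5 over shLuc with a 95% interval. With 1 library per condition there is no replicate check and no p-value, and the intervals cover counting error only. In the check of the cell type, hsa-miR-100-5p, hsa-miR-21-5p, hsa-miR-222-3p and hsa-miR-221-3p, known as abundant in mesenchymal-like triple-negative lines, summed to 435891 CPM (shELOVL5) and 449163 CPM (shLuc). The 7 microRNAs known as low there summed to 387 and 298 CPM, and 3 of them were expressed. hsa-miR-200b-3p had a ratio of 1.31 (1.22 to 1.41) and hsa-miR-200a-3p of 1.71 (1.47 to 1.99), both higher in shELOVL5. For hsa-miR-200c-3p the ratio was 0.981 (0.860 to 1.12). The rarer hsa-miR-429, not among the 3, was also higher in shELOVL5, at 114 against 73 counts and a ratio of 1.59 (1.17 to 2.16). The intervals of hsa-miR-141-3p and hsa-miR-205-5p, with few counts, include 1. hsa-miR-31-5p had no count, for which 3 counts set an upper limit of 0.440 CPM (shELOVL5) and 0.422 CPM (shLuc). Of 6 blood cell markers 1 was expressed, and the list summed to 331 and 398 CPM, with hsa-miR-223-3p and hsa-miR-144-3p at 0 in both. Most of that sum was hsa-miR-486-5p, at 2146 against 2788 counts, while the rarer hsa-miR-142-5p (84 against 6 counts) and hsa-miR-142-3p (45 against 2) were higher in shELOVL5, at ratios of 14.3 (6.28 to 39.9) and 22.9 (5.98 to 195). Of 4 stromal and endothelial markers 1 was expressed, with sums of 757 and 632 CPM and none at 0. Of 5 liver, muscle and neuron markers 0 were, with 32.5 and 29.1 CPM and hsa-miR-124-3p at 0. In that last list hsa-miR-206 was higher in shELOVL5, at 155 against 69 counts and a ratio of 2.29 (1.71 to 3.08). hsa-miR-1-3p was lower there, at 14 against 80 counts and a ratio of 0.178 (0.0932 to 0.317). The part of such cells in the results below was not tested.

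The cluster arms were a sizeable part of both libraries. All are 21 to 23 bases long, so their levels are compared without a correction for length. Together the 10 arms took 5.75% of the counts in shELOVL5 (exact binomial 95% interval 5.74 to 5.77%) and 6.16% in shLuc (6.14 to 6.17%). Nearly all of this was guide strand, led by hsa-miR-24-3p with 31.6% and 31.9% of the arms' counts and hsa-miR-27b-3p with 29.4% and 34.8%. By the highest row of hsa-miR-24-3p, the order of these leaders differed between the libraries. hsa-miR-24-3p ranked 11 in both libraries, while hsa-miR-27b-3p ranked 12 in shELOVL5 and 10 in shLuc. hsa-miR-27a-3p followed at rank 19 and 20, hsa-miR-23a-3p at 28 and 32, and hsa-miR-23b-3p at 43 and 38. Among the passengers, hsa-miR-27a-5p was the most abundant, at rank 70 and 69.

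**Figure D1:**
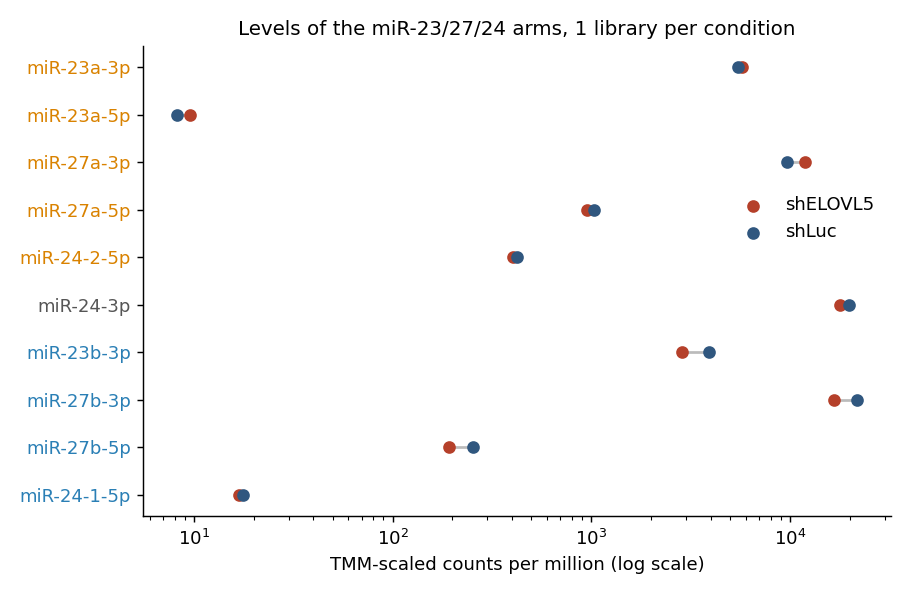
Level of each of the 10 arms in TMM-scaled CPM (x axis, log scale), with 1 point per library and arm names coloured by chromosome (orange 19, blue 9, grey both). hsa-miR-23b-3p, hsa-miR-27b-3p and hsa-miR-27b-5p lie lower in shELOVL5 than in shLuc, and hsa-miR-27a-3p lies higher.

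The chromosome 9 guides were lower in the cells with the ELOVL5 shRNA. hsa-miR-23b-3p had 19700 counts in shELOVL5 against 27599 in shLuc (2856 and 3931 CPM), which gives a ratio of 0.727 (0.713 to 0.740). hsa-miR-27b-3p had 115429 against 152205 counts (16736 and 21678 CPM), a ratio of 0.772 (0.766 to 0.778). The shELOVL5 library was the lower one for both guides, 1.38-fold for hsa-miR-23b-3p and 1.30-fold for hsa-miR-27b-3p. These 2 guides differed little from each other, since the ratio of hsa-miR-23b-3p was 0.941 times that of hsa-miR-27b-3p (0.923 to 0.960).

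The passenger of the miR-27b hairpin had nearly the same ratio as its guide. hsa-miR-27b-5p had 1329 counts in shELOVL5 against 1778 in shLuc (193 and 253 CPM), which gives a ratio of 0.761 (0.708 to 0.817). This arm differs from hsa-miR-27a-5p at 8 positions, so its count rests on a sequence that is easier to assign than that of the guides. hsa-miR-23b-5p, the passenger of miR-23b and not among the 10 arms, had 223 and 281 counts (32.3 and 40.0 CPM), a ratio of 0.808 (0.675 to 0.967). The fourth listed arm of the chromosome 9 cluster, hsa-miR-24-1-5p, was rare, with 116 against 124 counts (16.8 and 17.7 CPM). Its ratio of 0.952 (0.733 to 1.24) has an interval that includes both 1 and the ratio of hsa-miR-27b-3p, so at this depth it cannot be placed with either.

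The chromosome 19 guides were higher in shELOVL5, though unequally. hsa-miR-27a-3p had 82439 counts in shELOVL5 against 67781 in shLuc (11953 and 9654 CPM), which gives a ratio of 1.24 (log2 0.31, interval 0.29 to 0.32). hsa-miR-23a-3p had 39757 against 38404 counts (5764 and 5470 CPM), a ratio of 1.05 (1.04 to 1.07). Thus shELOVL5 was the higher library for both, beyond counting error, but the ratio of hsa-miR-23a-3p was only 0.851 times that of hsa-miR-27a-3p (0.837 to 0.866).

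None of the chromosome 19 passengers was higher in shELOVL5 beyond counting error. hsa-miR-27a-5p, cut from the same hairpin, had 6550 counts in shELOVL5 against 7260 in shLuc (950 and 1034 CPM), which gives a ratio of 0.918 (0.888 to 0.950). hsa-miR-24-2-5p had 2794 against 2959 counts (405 and 421 CPM), a ratio of 0.961 (0.912 to 1.01). hsa-miR-23a-5p was the rarest of the 10 arms with 66 against 58 counts (9.57 and 8.26 CPM), a ratio of 1.16 (0.802 to 1.68). Of these passengers hsa-miR-27a-5p lay below 1 beyond counting error, and the intervals of the other two include 1. For hsa-miR-23a-5p the interval is wide enough to hold the ratio of hsa-miR-27a-3p too.

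hsa-miR-24-3p is made from both clusters, and its reads do not show which hairpin they came from. It had 123792 counts in shELOVL5 against 139433 in shLuc (17948 and 19859 CPM), which gives a ratio of 0.904 (0.897 to 0.911). This lies between the chromosome 9 guides and the chromosome 19 guides. The table lists it under each hairpin, and the rows differ by 318 counts in shELOVL5 and 249 in shLuc, or 0.257% and 0.179%. Whether the rows list the same reads again or divide the reads between the hairpins was not tested. Either way, they cannot split the guide between the chromosomes. If the reads were divided, the level, rank and share of hsa-miR-24-3p and the total of the arms are too low here.

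**Figure D2:**
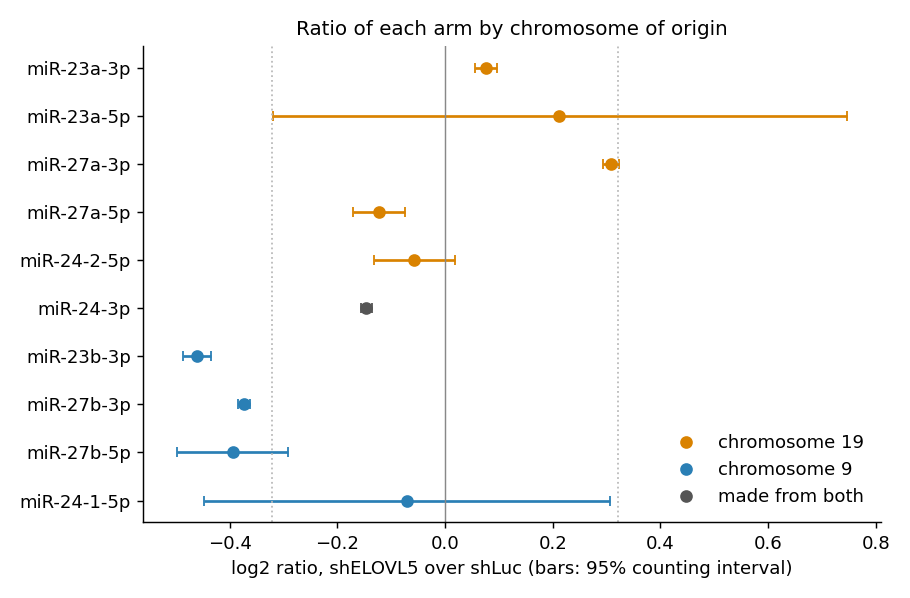
Log2 ratio of shELOVL5 over shLuc for each arm (x axis), coloured by chromosome, with bars for the 95% counting interval and dotted lines at 25% higher and 20% lower. The chromosome 9 arms lie below 0 at between -0.46 and -0.07, and the chromosome 19 arms lie between -0.12 and 0.31.

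Set against all microRNAs, the 3 expressed chromosome 9 arms stood in the low tail. Of the 10 arms, 8 passed the expression limit of a mean of 50 CPM and 100 counts over both libraries, as did 191 microRNAs in all. Among the 8, 3 were at least 20% lower in shELOVL5 (a ratio of 0.8 or less), namely hsa-miR-23b-3p, hsa-miR-27b-3p and hsa-miR-27b-5p, where 9.95% of all expressed microRNAs were. None of the 8 was at least 25% higher, the same step upward on the log scale, where 9.95% of all were. Under total count scaling the split over all expressed microRNAs was 29 higher and 13 lower in place of 19 and 19, and hsa-miR-27a-3p was then more than 25% higher as well. With DESeq2 size factors, another scaling, the split was 18 higher and 25 lower. None of the 10 arms reached 2-fold, against 1.57% of expressed microRNAs higher and 0% lower. The 3 lower arms include the guide and the passenger of 1 hairpin, so they are not separate measurements of the locus.

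From the lowest ratio upward, hsa-miR-23b-3p was number 6 of the 191, hsa-miR-27b-5p number 9 and hsa-miR-27b-3p number 12. At the other end, hsa-miR-27a-3p was number 168, with 24 microRNAs at or above its ratio. The remaining expressed arms lay in the middle, with hsa-miR-24-3p at 62, hsa-miR-27a-5p at 65, hsa-miR-24-2-5p at 85 and hsa-miR-23a-3p at 125. The median log2 ratio of the 8 expressed arms was -0.13, against -0.033 over all 191. Of the 8, 2 had intervals above 1 and 5 below, and of the 191, 61 and 80.

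**Figure D3:**
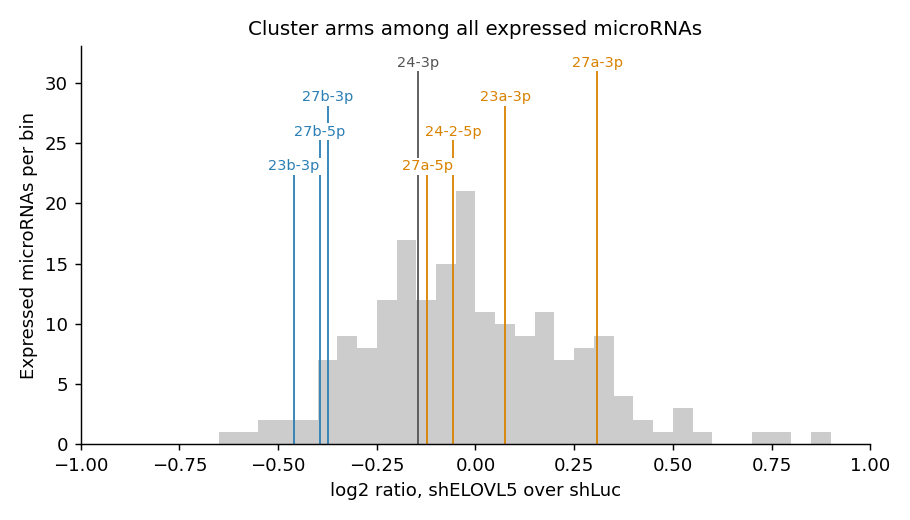
Number of expressed microRNAs per bin of 0.05 in the log2 ratio of shELOVL5 over shLuc, with lines at the 8 expressed arms (orange chromosome 19, blue chromosome 9, grey both). The axis runs from -1 to 1 and leaves out 3 of the 191 microRNAs above it, and hsa-miR-23b-3p, hsa-miR-27b-5p and hsa-miR-27b-3p stand in the lower tail.

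The balance between the paralogs was then compared within each library, where scaling cancels. hsa-miR-27b-3p made up 69.2% of the miR-27 guides in shLuc (69.0 to 69.4%) and 58.3% in shELOVL5 (58.1 to 58.6%). hsa-miR-23b-3p made up 41.8% of the miR-23 guides in shLuc (41.4 to 42.2%) and 33.1% in shELOVL5 (32.8 to 33.5%). In both families the share of the chromosome 9 copy was smaller in shELOVL5, beyond counting error. Differences beyond counting error were common, since of the 191 expressed microRNAs 61 had ratio intervals above 1 and 80 below. As a ratio of ratios, the chromosome 9 copy was 1.60-fold lower relative to its paralog for miR-27-3p (1.58 to 1.62) and 1.45-fold lower for miR-23-3p (1.42 to 1.48). Because the guides of a pair differ by 1 substitution near the 3′ end, reads that are short or carry an error there could be given to either copy, and how the authors' counting treated them was not tested.

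The passengers of the paralogs showed smaller or unresolved differences. hsa-miR-27b-5p made up 19.7% of the miR-27 passengers in shLuc (18.9 to 20.5%) and 16.9% in shELOVL5 (16.0 to 17.7%), 1.21-fold lower relative to hsa-miR-27a-5p (1.12 to 1.31). This is the same direction as for the guides at a smaller size, since hsa-miR-27a-5p was not higher in shELOVL5. hsa-miR-24-1-5p made up 4.02% of the miR-24 passengers in shLuc (3.36 to 4.78%) and 3.99% in shELOVL5 (3.30 to 4.76%), and its ratio of ratios of 0.991 (0.765 to 1.28) leaves room for a difference of the size seen for miR-27-5p. hsa-miR-23b-5p made up 82.9% (78.5 to 86.7%) and 77.2% (71.9 to 81.9%) of the miR-23 passengers, from 339 and 289 counts. Its ratio of ratios was 0.697 (0.470 to 1.03), with an interval that includes 1.

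The level of a copy depended on the arm read. In shLuc the chromosome 9 copy gave most of the miR-27 guides but a minority of the miR-27 passengers, and a minority of the miR-23 guides but most of the miR-23 passengers. The same held in shELOVL5. For miR-24 the passenger of chromosome 19, hsa-miR-24-2-5p, was by far the more abundant in both libraries.

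**Figure D4:**
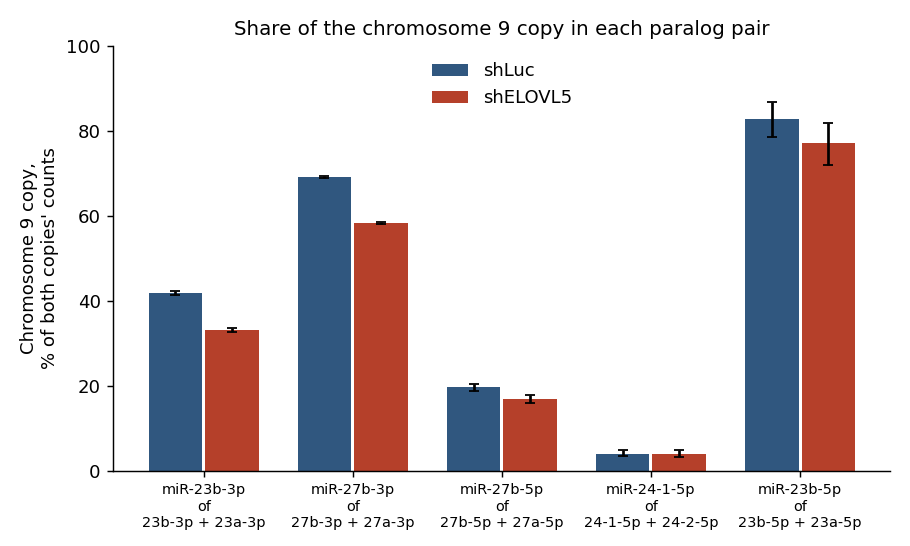
Share of the chromosome 9 copy in the summed counts of each paralog pair (y axis, percent), in shLuc and shELOVL5, with bars for the exact binomial 95% interval. The share is smaller in shELOVL5 for both guides and for miR-27-5p, and is 4.02% and 3.99% for miR-24-5p. For miR-23-5p it is 82.9% in shLuc and 77.2% in shELOVL5, with intervals that overlap.

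Summed over the arms that belong to 1 locus only, the clusters stood on opposite sides of 1. The 4 listed chromosome 9 arms had 136574 counts in shELOVL5 against 181706 in shLuc (19802 and 25879 CPM), which gives a ratio of 0.765 (0.760 to 0.771). The 5 chromosome 19 arms had 131606 against 116462 counts (19081 and 16587 CPM), a ratio of 1.15 (1.14 to 1.16). The chromosome 9 arms took 60.9% of these locus-specific counts in shLuc (60.8 to 61.1%) and 50.9% in shELOVL5 (50.7 to 51.1%). These sums are mostly miR-27 guide, and hsa-miR-24-3p is in neither. Singly, 3 of the 5 chromosome 19 arms had ratios above 1, and hsa-miR-27a-5p (0.918) and hsa-miR-24-2-5p (0.961) lay below. All 4 chromosome 9 arms lay below 1.

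Summed by seed, the guides had nearly the same ratio in each family, although the copies within a family did not. The miR-27 guides together stood at 28689 CPM in shELOVL5 and 31331 CPM in shLuc, a ratio of 0.916 (0.910 to 0.921). The miR-23 guides together stood at 8621 and 9400 CPM, a ratio of 0.917 (0.907 to 0.927). With hsa-miR-24-3p at 0.904, the 3 guide seeds of the clusters were each lower in shELOVL5 by 1.09-fold to 1.11-fold, whereas the single copies ranged from 0.727 to 1.24. All 10 arms together had a ratio of 0.912 (0.908 to 0.916).

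The hairpins also differed in how their arms moved. In the miR-27a hairpin the 5p arm took 9.67% of the counts in shLuc (9.46 to 9.89%) and 7.36% in shELOVL5 (7.19 to 7.53%), so that the 5p-to-3p ratio was 1.35-fold lower in shELOVL5 (1.30 to 1.40). In the miR-27b hairpin the 5p arm took 1.15% (1.10 to 1.21%) and 1.14% (1.08 to 1.20%), with a log2 change of the arm ratio of -0.021 (-0.12 to 0.082). Over 100 hairpins with at least 100 counts on each arm, 9% had an arm ratio at least 20% lower and 18% at least 25% higher. Of the 6 hairpins of the clusters, miR-27a was the 1 past these limits, at number 5 of 100 from the lowest. The 3p arms of miR-27a and miR-27b differ by 1 substitution. Reads given to the wrong copy would therefore also shift these arm ratios, which was not tested.

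In the remaining hairpins the arm ratio differed little or was not resolved at this depth. The 5p arm of miR-24-2 took 2.08% of the counts with hsa-miR-24-3p in shLuc (2.00 to 2.15%) and 2.21% in shELOVL5 (2.13 to 2.29%), a log2 change of 0.089 (0.013 to 0.16). For both miR-24 hairpins the highest row of hsa-miR-24-3p was used. If that row holds the guide of both hairpins, these shares are too small for either hairpin alone. The log2 change was 0.14 for miR-23a (-0.37 to 0.65), 0.15 for miR-23b (-0.10 to 0.41) and 0.075 for miR-24-1 (-0.29 to 0.44), all with intervals that include 0 and reach past a change of 25%. Arm use itself was strongly uneven, with a 5p share of 0.151% in miR-23a and 1.01% in miR-23b in the shLuc library.

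**Figure D5:**
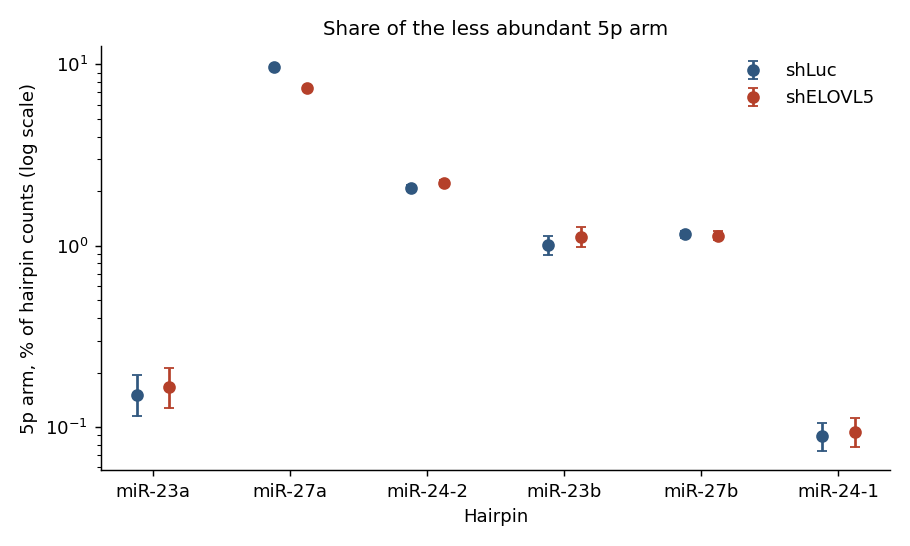
Share of the 5p arm in the counts of each hairpin (y axis, percent, log scale) in shLuc and shELOVL5, with bars for the exact binomial 95% interval. The share in miR-27a is 9.67% in shLuc and 7.36% in shELOVL5, and the intervals of the libraries overlap in every other hairpin.

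Other microRNAs known for lipid gene control were set beside these arms because miR-27 is among that group. Of 12 listed outside the clusters 6 were expressed, of which 4 had intervals above 1 and 1 below, with a median log2 ratio of 0.16. Over all 191 expressed microRNAs 61 lay above and 80 below, with a median of -0.033. The most abundant, hsa-miR-103a-3p, stood at 1.14 (1.13 to 1.15) and hsa-miR-30c-5p at 0.994 (0.983 to 1.01). The 1 below was hsa-miR-128-3p, named here after its value was seen, with 17197 and 22379 counts and a ratio of 0.782 (0.767 to 0.798). Its sequence carries the letters of the miR-27 seed at bases 1 to 7, 1 base nearer the 5′ end than in miR-27, so the seeds overlap without being the same.
hsa-miR-128-3p: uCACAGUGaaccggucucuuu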

How the data were processed

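The authors deposited unnormalized whole-number read counts, 1 line per precursor and mature microRNA. The submitters' processing notes name FastQC 0.11.9, cutadapt 2.10 and Bowtie 1.1.1, with no settings. Which program counted the reads, with which annotation and mismatches, is not given in the sources used here. Per the labels' protocols, RNA came from a Qiagen miRNeasy kit and libraries from a NEBNext small RNA kit. The extraction text speaks of frozen tumor, the other labels of the cell line. No molecular identifiers are described, so PCR copies may be counted.

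The table's 2886 lines hold 2656 microRNAs. The highest precursor row per library was kept, and counts were scaled with TMM (edgeR 4.0.16, R 4.3.3), with factors of 1.01 for shELOVL5 and 0.988 for shLuc. Ratio intervals were converted from exact Clopper-Pearson intervals for the fraction of an arm's counts found in shELOVL5, and intervals of ratios of ratios from a Wald interval on the log scale (scipy 1.17.1). No test was possible with 1 library per condition. The scripts were tested on simulated data.

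All 10 arms are named, plus hsa-miR-23b-5p, the arms of MIR3074 opposite MIR24-1, microRNAs with a guide's seed, and the 2 most abundant of the lipid list. Some markers of the cell type check are named too. Of the microRNAs with a guide's seed, hsa-miR-9985 is not reported here. Members, lists, folds and expression limit were chosen with earlier results of these data known. As alternatives, DESeq2 1.42.0 size factors, total count scaling, 5 CPM added, the sum or mean over precursor rows, other expression limits and whole intervals past the limit of size were run.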

Additional observations from a re-analysis of the deposited data

How the results depend on the processing

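No paired analysis was possible because there was only 1 library of each kind, and no library could be left out. Over 50 combinations of an arm and a setting, 0 changed sign and 9 moved beyond the counting interval, all 9 under the 2 other scalings. Total count scaling shifts every log2 ratio by 0.036 and DESeq2 size factors by -0.026. The sum and the mean over precursor rows shift every arm except hsa-miR-24-3p only through the scaling, by -0.0049 and 0.0010. Under these scalings, in that order, the log2 ratio of the sum was 0.24 and 0.18 for the chromosome 19 arms (0.20 with TMM), -0.35 and -0.41 for chromosome 9 (-0.39), -0.089 and -0.15 for the miR-23 guides (-0.12) and -0.091 and -0.15 for the miR-27 guides (-0.13). The alternatives for the guide sums, the miR-23-5p pair and the comparisons within a cluster were chosen after seeing the data. The ratios of ratios between paralogs and between arms stayed within their counting intervals under 5 CPM added and the sum or mean over precursor rows. The sum and the mean could not change them except in the miR-24-2 and miR-24-1 hairpins, so they are no check on the others. The 3 arms at least 20% lower stayed 3 under every scaling and were 2 at a mean of at least 1000 CPM and when the whole interval had to lie beyond that limit. The count of arms at least 25% higher was 1 in place of 0 under total count scaling. Over all expressed microRNAs, the 19 at least 25% higher became 29 under total count scaling and 18 under DESeq2 size factors. The 19 at least 20% lower became 13 and 25 under the same scalings. The 19 higher and 19 at least 20% lower became 49 and 31 at a mean of at least 10 CPM, 3 and 8 at 1000 CPM, 298 and 255 when 1 count in each library sufficed, and 12 and 10 with the whole interval. The 3 higher and 0 lower at 2-fold became 5 and 0, 0 and 0, and 120 and 77 under the same 3 limits. Each limit changes how many microRNAs are counted, 313, 68 and 1024 in place of 191. Depth limits hsa-miR-23a-5p and hsa-miR-24-1-5p, and the lack of replicates limits every ratio.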

Other observations

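Some further RNAs come from the strand opposite a cluster hairpin or share a seed with the guides. MIR3074 lies on the minus strand opposite MIR24-1 at chr9:95086014-95086094, so that hsa-miR-3074-5p is complementary to 20 bases of hsa-miR-24-3p. It had 65 counts in shELOVL5 against 67 in shLuc (9.42 and 9.54 CPM), which gives a ratio of 0.988 (0.691 to 1.41). Its other arm, hsa-miR-3074-3p, had 3 against 9, or a ratio of 0.339 (0.0591 to 1.36). Both arms of this antisense hairpin were rare, and both intervals include 1.

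hsa-miR-23c, from chromosome X, shares the seed of the miR-23 guides and their first 13 bases. It had 45 counts in shELOVL5 against 60 in shLuc (6.52 and 8.55 CPM), which gives a ratio of 0.764 (0.507 to 1.14). Against 59457 and 66003 counts of the miR-23 guides, hsa-miR-23c was a very small part of that seed family in both libraries.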
